A study of Mus musculus with 6 samples.

Results

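A set of 10 genes that mark mature migratory dendritic cells was followed in RNA from tumour-infiltrating dendritic cells, out of 26519 genes in the count table. They were taken by symbol from the table's Ensembl mouse identifiers: Ccr7, Fscn1, Ccl17, Ccl22, Il4i1, Cacnb3, Serpinb6b, Samsn1, Lad1 and Tbc1d4, and each matched 1 row. The cells came from tumours of MC38, a mouse colon carcinoma line, removed on day 10 after inoculation. The 6 libraries formed 2 groups, 3 from wild-type (WT) host mice and 3 from MAVS knockout (MAVS KO) host mice, and the genotype was that of the host, not of the tumour cells. MAVS sits on mitochondria and relays the signal of RIG-I and MDA5, which detect viral RNA in the cytosol, and the study asks how its loss in the host alters dendritic cells in the tumour. Library totals ranged from 14466640 to 20851733 counts. The labels do not give the mouse strain, age or the deleted part of Mavs, nor whether a replicate was 1 animal or a pool, so a p-value here reflects only how far these libraries spread, which may be technical. Mavs itself stood at 33.9, 39.7 and 39.7 CPM (counts relative to library size, scaled by the TMM method of edgeR) in wild-type and 8.99, 12.8 and 9.45 CPM in knockout libraries, lower in every knockout library as labelled.

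A dendritic cell that has taken up antigen or sensed damage leaves its immature state: it stops sampling, displays antigen with costimulatory molecules, and moves through lymphatic vessels to the draining lymph node, where it primes T cells. In tumours this state has been described as mature dendritic cells enriched in immunoregulatory molecules, or mregDC, because costimulatory genes and inhibitory ligands such as those of PD-1 come on together. The genes followed here cover guidance to the node (Ccr7), the actin bundles of the dendrites (Fscn1), chemokines released to T cells (Ccl17, Ccl22), amino acid metabolism (Il4i1) and several genes known mainly as labels of the state (Cacnb3, Serpinb6b, Samsn1, Lad1, Tbc1d4).

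The receptor and 1 of the chemokines were higher in knockout hosts. Ccr7 rose 2.17-fold and Ccl22 rose 1.94-fold, and no gene of the list fell. Of the 10 genes, 8 passed the filter on low counts, and of those 2 rose, none fell and 6 did not pass, against 1.76% of all 12580 tested genes that rose, 1.05% that fell and 2.81% called in either direction (quasi-likelihood test of edgeR, Benjamini-Hochberg adjusted over all tested genes, threshold 0.05). In bulk RNA fewer cells of a type and less RNA per cell cannot be told apart. The median log2 fold change of the 8 was 0.84, beside -0.0022 for all tested genes. A gene can pass the filter through the group in which it is high, so the 8 do not stand for the 10. Fscn1 did so: wild-type replicate 1, with 7 counts, was under the cutoff, and the knockout libraries held 87, 39 and 40. In 4 of the 8, Fscn1 among them, every knockout library lay above every wild-type library. That separation was seen in this direction for 11.2% of all tested genes, in the other for 10.6% and in either for 21.8%. The other fits on all 6 libraries called 2.77% of genes with DESeq2 size factors, 3.52% with library size alone, 4.68% with a mean of at least 5 CPM, 2.79% with robust dispersion, 2.54% with limma-voom and 3.29% both with the replicate block and after thinning. Fits without wild-type replicate 1, 2 or 3 called 1.51%, 1.16% and 2.16%, and those without knockout replicate 1, 2 or 3 called 0.302%, 0.488% and 0.274%.

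The 10 genes stood at very different levels. Per kilobase of exon, Ccl17 was the most abundant, at 596 ± 68.0 CPM per kb in wild-type and 749 ± 133 CPM per kb in knockout libraries (SD, n = 3 each), a level above that of 99.2% of tested genes in the wild-type group. Next in the wild-type group came Ccl22 at 23.7 ± 1.41, Ccr7 at 17.3 ± 3.16 and Samsn1 at 15.8 ± 0.821 CPM per kb (SD, n = 3 each), and the libraries of Ccr7 and Samsn1 overlapped. The rest were scarce. Tbc1d4 stood at 2.33 ± 0.235, Serpinb6b at 1.30 ± 0.743 and Cacnb3 at 1.03 ± 0.413 CPM per kb in wild-type libraries, each overlapping its neighbour in that order. Fscn1 was lower still, at 0.325 ± 0.192 CPM per kb, under the level of all but 9.52% of tested genes, and Il4i1 and Lad1 had a handful of counts. Ccl17 alone made up 57.0% to 63.9% of the summed CPM of the 10 genes in the wild-type group and 51.9% to 60.8% in the knockout group.

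**Figure D1:**
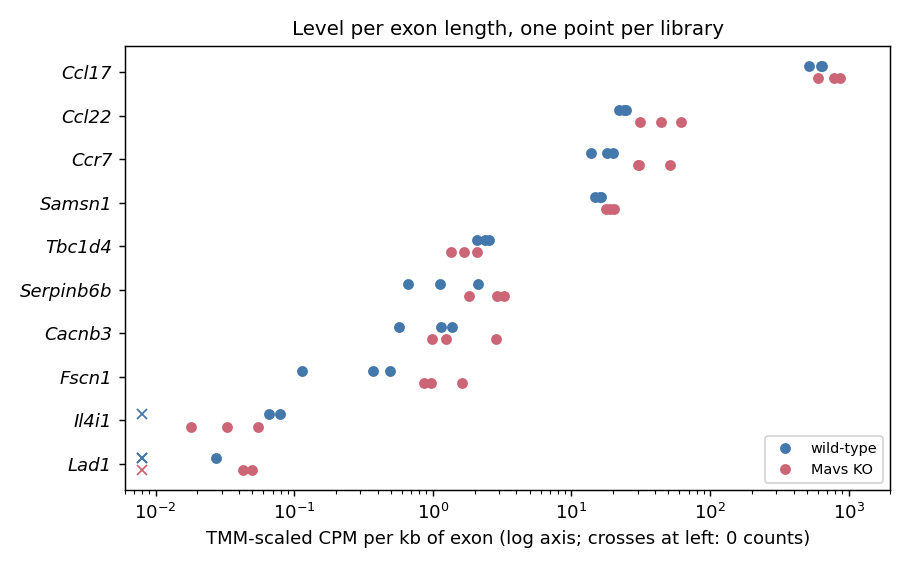
Level of each gene in TMM-scaled CPM per kb of annotated exon (log axis), 1 point per library, blue for wild-type and red for MAVS KO, with crosses at the left for libraries with 0 counts. Ccl17 lies at 518 CPM per kb or more in all 6 libraries, Ccl22, Ccr7 and Samsn1 lie between 13.8 and 61.3, and the other 6 genes lie at 3.24 or less.

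Ccr7 encodes the receptor for the lymphatic chemokines CCL19 and CCL21 and steers mature dendritic cells to the lymph node. The gene (ENSMUSG00000037944) lies on the minus strand of chromosome 11, from 99144196 to 99155077 in mm10. Its level was 39.4, 27.2 and 35.9 CPM in the wild-type libraries and 101, 60.2 and 60.9 CPM in the knockout libraries. All knockout libraries were above all wild-type libraries, and knockout replicate 1 was the highest. The log2 fold change was 1.12 (SE 0.22, 95% interval 0.63 to 1.60, edgeR adjusted p = 0.0288). The call held in each of the other fits on all 6 libraries, but in none of the 6 fits that left out 1 library, whose adjusted p ran from 0.0508 to 0.0792 with log2 fold changes of 0.82 to 1.25. Its ligands Ccl19 and Ccl21a were not analysed here. Gnai2, an inhibitory G protein subunit through which chemokine receptors signal, was at 0.46 on the log2 scale (SE 0.17) and did not pass (edgeR adjusted p = 0.20), except without the filter.

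Fscn1 encodes fascin, which bundles actin in the long dendrites of mature cells. It lies on chromosome 5 (ENSMUSG00000029581, plus strand, 142960343 to 142973185). The libraries held 7, 21 and 32 counts in wild-type and 87, 39 and 40 counts in knockout hosts, or 0.345, 1.12 and 1.47 against 4.89, 2.62 and 2.93 CPM. The groups did not overlap, but the gene passed the filter through its knockout libraries, so that separation is no support for a difference. The estimate, 1.82 on the log2 scale (SE 0.56, 95% interval 0.59 to 3.05), was the greatest of the 8 tested genes and did not pass (edgeR adjusted p = 0.128). It passed with DESeq2's Wald test (adjusted p = 0.0297, a test that called 7% of genes) and without the filter on low counts (edgeR adjusted p = 0.0184, 3.48% of genes called). Among 10 other genes of actin and cell movement, Adam8, a surface protease of migrating leukocytes, rose by 0.65 (SE 0.15, edgeR adjusted p = 0.0483), none fell and 9 did not pass. That call held in 1 of the 6 fits without 1 library and was lost with DESeq2 size factors (adjusted p = 0.0526) and with library size alone.

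Ccl22 and Ccl17 encode the chemokines that attract T cells bearing CCR4, among them regulatory T cells. They are neighbours on the plus strand of chromosome 8, Ccl22 (ENSMUSG00000031779) from 94745590 to 94751699 and Ccl17 (ENSMUSG00000031780) from 94810453 to 94812036, with 58.8 kb between them. The start regions of both, and that of Fscn1, are shown because the pair is adjacent and shares a receptor, and because these genes span the highest and nearly the lowest levels of the list. Each run is the 300 bases from 250 before to 50 after the RefSeq start (GRCm38.p6), read 5′ to 3′ on the plus strand of chr8:94745434-94745733, chr8:94810203-94810502 and chr5:142960105-142960404, with a match to the TATA box in capitals.
Ccl22: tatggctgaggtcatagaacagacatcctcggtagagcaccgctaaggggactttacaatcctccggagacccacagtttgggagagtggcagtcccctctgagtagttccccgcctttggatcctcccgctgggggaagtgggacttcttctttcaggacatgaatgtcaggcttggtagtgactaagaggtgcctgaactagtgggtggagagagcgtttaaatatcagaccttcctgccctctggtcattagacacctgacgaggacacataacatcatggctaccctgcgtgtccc
Ccl17: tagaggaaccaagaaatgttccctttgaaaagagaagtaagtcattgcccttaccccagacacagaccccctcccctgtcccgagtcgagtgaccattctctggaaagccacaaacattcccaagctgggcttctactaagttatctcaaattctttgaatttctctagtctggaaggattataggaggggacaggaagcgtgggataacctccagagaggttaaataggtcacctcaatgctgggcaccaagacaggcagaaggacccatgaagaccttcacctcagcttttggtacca
Fscn1: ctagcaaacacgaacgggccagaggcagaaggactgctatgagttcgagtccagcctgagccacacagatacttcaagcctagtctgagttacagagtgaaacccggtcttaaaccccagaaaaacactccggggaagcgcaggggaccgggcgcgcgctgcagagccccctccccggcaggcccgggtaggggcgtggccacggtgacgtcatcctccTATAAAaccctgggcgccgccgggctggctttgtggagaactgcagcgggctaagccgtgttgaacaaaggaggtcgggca

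Such windows were found for 9 of the 10 genes, all but Ccr7, whose start region was therefore not searched. There were 10 windows in all because Cacnb3 has 2. They were searched on both strands for 4 motifs, which can overlap. The NF-kB consensus and the AP-1 motif TGANTCA had no match in these windows, and matched 8.46% and 7.81% of all 32851 windows. The TATA box TATAAA matched the Fscn1 window alone among these genes, 31 bases before the start, and 13.6% of all windows. The GC box GGGCGG matched 4 genes (Il4i1, Serpinb6b, Cacnb3 and Tbc1d4) and 35.7% of all windows. The windows of Ccl22 and Ccl17 held none of the 4, which says only that these letters are not there.

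The levels of Ccl22 were 58.0, 51.5 and 55.6 CPM in wild-type and 143, 103 and 73.1 CPM in knockout libraries. The wild-type libraries lay close together, and every knockout library was above them. The log2 fold change was 0.95 (SE 0.20, 95% interval 0.50 to 1.40, edgeR adjusted p = 0.0372). With library size alone the adjusted p was 0.0614, and among the fits that left out 1 library the call held only without knockout replicate 3 (adjusted p from 0.0425 to 0.117, log2 fold changes from 0.68 to 1.16).

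Ccl17 stood at 331, 322 and 266 CPM in wild-type and 444, 310.2 and 400.5 CPM in knockout libraries. The groups overlapped, since knockout replicate 2 was below wild-type replicates 1 and 2. Its log2 fold change was 0.33 (SE 0.14, 95% interval 0.01 to 0.65, edgeR adjusted p = 0.299). The interval is that of the single gene before adjustment. Within each library Ccl22 amounted to 17.5%, 16.0% and 20.9% of the CPM of Ccl17 in wild-type and 32.1%, 33.4% and 18.3% in knockout hosts. The ratios overlapped between the groups. With 3 against 3 libraries an exact two-sided permutation test can give no p below 0.10. Here it gave 0.20, and at this size the test could not tell whether Ccl22 and Ccl17 changed unequally. Ccr4, the receptor of both, had 18 counts in all wild-type and 3 in all knockout libraries and was under the filter. Dpp4, a peptidase that trims chemokines including CCL22, was lower in every knockout library (log2 fold change -1.0, SE 0.24). It did not pass in edgeR (adjusted p = 0.0597) but passed in 6 of the 9 other fits on all 6 libraries, among them limma-voom (adjusted p = 0.0417), library size alone (edgeR adjusted p = 0.0294) and DESeq2's Wald test. Dpp4 was called in none of the 6 fits that left out 1 library (edgeR adjusted p from 0.0684 to 0.191).

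**Figure D2:**
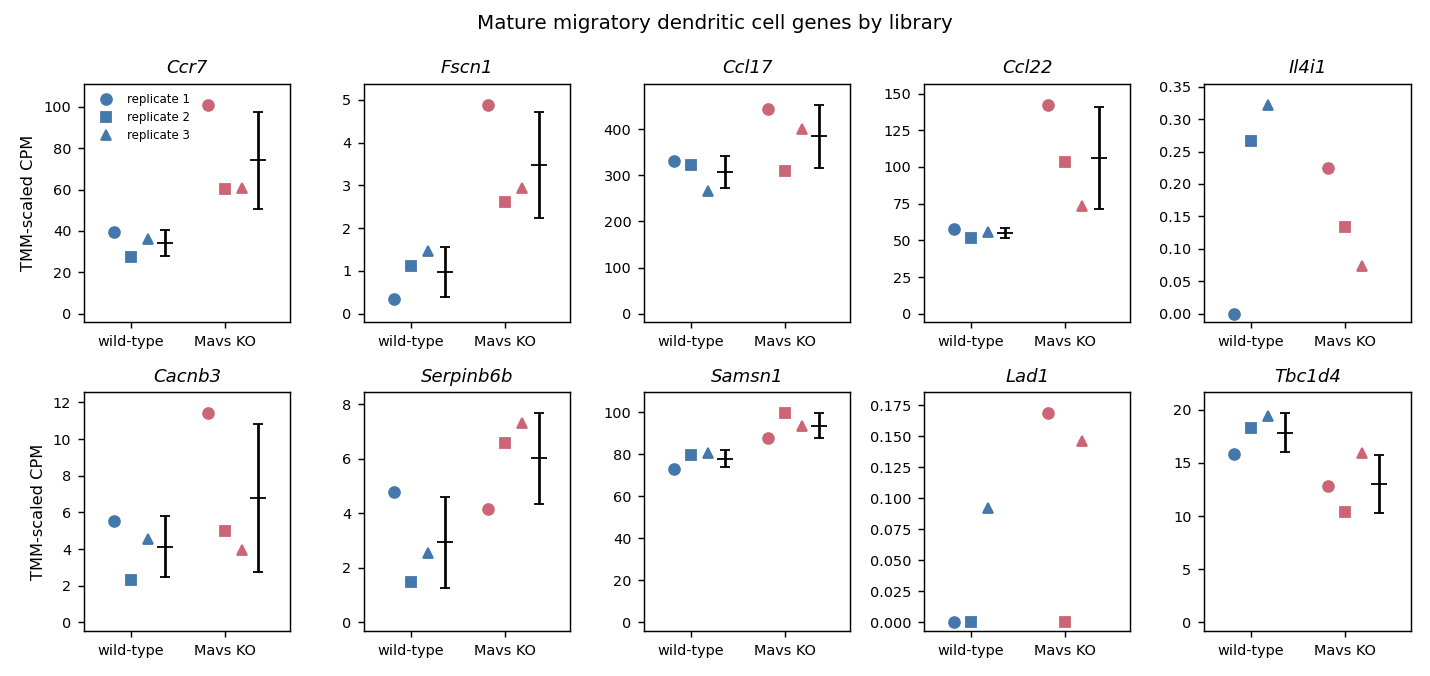
TMM-scaled CPM of the 10 genes, 1 panel per gene with its own linear axis starting just below 0, 1 symbol per replicate (circle 1, square 2, triangle 3), and the mean with SD in black for the 8 tested genes. Knockout replicate 1 is the highest knockout library for Ccr7, Fscn1, Ccl17, Ccl22 and Cacnb3, and the groups do not overlap for Ccr7, Fscn1, Ccl22 and Samsn1.

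Il4i1 encodes a secreted amino acid oxidase that degrades phenylalanine and tryptophan and dampens T cells. It had 0, 5 and 7 counts in the wild-type and 4, 2 and 1 counts in the knockout libraries, under the filter in both groups. These counts cannot be read as its level. In GENCODE M21 the gene (ENSMUSG00000074141, chromosome 7, plus strand, 44816387 to 44840809) shares 3423 of its 4080 exon bases (83.9%) with exons of Tbc1d17 on the other strand. Its coding transcripts of 2048 and 467 bases lie wholly inside those exons, and the longest (2275 bases) has 13% outside. The sources used here give neither the strand setting nor the annotation of the deposited counts, so reads from that stretch may have been assigned to Tbc1d17 or to no gene. Tbc1d17 stood at 36.8, 38.1 and 44.3 CPM in wild-type and 54.6, 34.2 and 39.8 CPM in knockout libraries, which overlapped (log2 fold change 0.11, SE 0.18, edgeR adjusted p = 0.838). The aryl hydrocarbon receptor gene Ahr, whose product senses metabolites made by IL4I1, was at -0.11 on the log2 scale (SE 0.22), and 0 of 4 tested genes of that receptor's pathway passed in either direction.

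The remaining genes with enough counts did not pass. Serpinb6b, an intracellular serine protease inhibitor (ENSMUSG00000042842, chromosome 13, 32965209 to 32979067), had 4.78, 1.49 and 2.53 CPM in wild-type and 4.16, 6.57 and 7.32 CPM in knockout libraries. Wild-type replicate 1 lay above knockout replicate 1, so the groups overlapped. The log2 fold change was 1.03 (SE 0.43, 95% interval 0.07 to 1.98, edgeR adjusted p = 0.273). A transcript of Serpinb6c, a gene not analysed here, matches it at 86.5% over 1180 bases, and the sources used here do not say how reads that fit both were counted. Of 3 tested relatives, the granzyme B inhibitor Serpinb9 rose by 0.57 (SE 0.13, edgeR adjusted p = 0.0487), a call lost with DESeq2 size factors, library size alone, limma-voom, robust dispersion and the replicate block (adjusted p from 0.0505 to 0.123).

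Cacnb3, the beta-3 subunit of voltage-gated calcium channels (ENSMUSG00000003352, chromosome 15, 98630840 to 98644529), had 5.52, 2.30 and 4.56 CPM in wild-type and 11.4, 4.96 and 3.96 CPM in knockout libraries. The groups overlapped, and the difference rested on knockout replicate 1: the log2 fold change was 0.72 (SE 0.45, 95% interval -0.27 to 1.71, edgeR adjusted p = 0.499) and 0.11 without that library. Of 11 listed genes of calcium channels, 5 were tested and none passed. Cacna1d, a pore-forming subunit, was at 0.51 on the log2 scale (SE 0.31).

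Samsn1, an adaptor with SH3 and SAM domains that restrains lymphocyte activation (ENSMUSG00000022876, chromosome 16, minus strand, 75858793 to 76022281), had little spread within each group. It stood at 73.2, 79.7 and 80.7 CPM in wild-type and 87.6, 99.5 and 93.7 CPM in knockout libraries. The groups did not overlap, yet the step was small, 0.27 on the log2 scale (SE 0.11, 95% interval 0.02 to 0.51, edgeR adjusted p = 0.268). With library size alone it was 0.10. A pseudogene transcript matches 390 bases of it at 99.7%, and reads there may be assigned to either. Its relative Sash3, an adaptor of lymphocytes, was at -0.30 (SE 0.12) and did not pass either (edgeR adjusted p = 0.243).

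Tbc1d4 was the only tested gene of the list with a negative estimate. It encodes AS160, a Rab GTPase-activating protein that holds glucose transporters inside cells until insulin signals (ENSMUSG00000033083, chromosome 14, minus strand, 101442360 to 101609191). Its levels were 15.9, 18.3 and 19.4 CPM in wild-type and 12.8, 10.4 and 15.9 CPM in knockout libraries, with wild-type replicate 1 just below knockout replicate 3. The log2 fold change was -0.46 (SE 0.20, 95% interval -0.90 to -0.01, edgeR adjusted p = 0.305). Of 9 tested genes of glucose transporter traffic, the transporter Slc2a1 rose by 0.67 (SE 0.13, edgeR adjusted p = 0.0261) and 8 did not pass. Without 1 library Slc2a1 was called in 1 of 6 fits. Slc2a4, the insulin-regulated transporter, had 1 count in all libraries together.

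Lad1, which encodes ladinin-1, a filament protein known from epithelia, had 0, 0 and 2 counts in wild-type and 3, 0 and 2 counts in knockout libraries. A count of 0 allows up to 3 counts, or 0.148 CPM in wild-type replicate 1, 0.160 CPM in wild-type replicate 2 and 0.201 CPM in knockout replicate 2, for counting error only. A difference between the groups was not detectable at this depth.

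**Figure D3:**
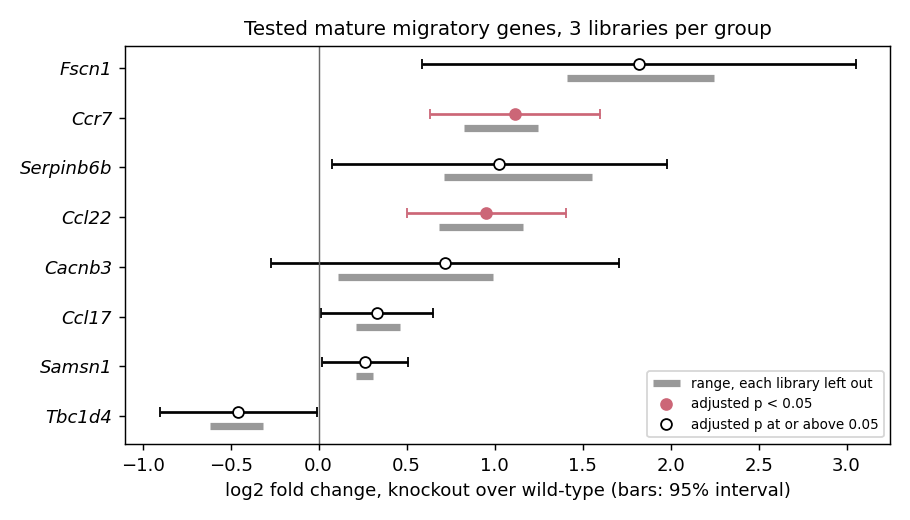
Log2 fold change of knockout over wild-type for the 8 tested genes, with 95% intervals of the edgeR fit as thin bars and the range over the 6 fits that left out 1 library as grey bars below. Ccr7 and Ccl22 are filled because their adjusted p was below 0.05, and Tbc1d4 is the only estimate below 0, at -0.46.

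The genes did not follow 1 order across libraries. Among the knockout libraries, replicate 1 was the highest for 5 of the 8 tested genes, Ccr7, Fscn1, Ccl17, Ccl22 and Cacnb3. For Serpinb6b and Samsn1 it was the lowest of the 3. Over all tested genes replicate 1 was the highest knockout library for 32.7%. Among the wild-type libraries, replicate 2 was the lowest for Ccr7, Ccl22, Cacnb3 and Serpinb6b, against 33.1% of all tested genes. Without knockout replicate 1 neither Ccr7 (0.82, adjusted p = 0.0767) nor Ccl22 (0.68, adjusted p = 0.0983) passed in edgeR, and 0.302% of tested genes did, in either direction.

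A wider list of 34 other genes of the mature state was read from the same fit. Of these 7 rose, none fell and 27 did not pass, against 1.76% of all tested genes that rose and 1.05% that fell. The median log2 fold change of the 34 was 0.37. As the list was chosen with earlier results of these data known, these counts are not independent support. The PD-1 ligands were among the 7: Cd274 rose by 1.15 (SE 0.18) and Pdcd1lg2 by 1.63 (SE 0.27). Cd200, which engages an inhibitory receptor on myeloid cells, rose by 1.82 (SE 0.31), from 2.86, 2.30 and 3.73 to 11.9, 12.5 and 6.96 CPM. The death receptor Fas rose by 0.95 (SE 0.18), the costimulatory receptor Cd40 by 0.71 (SE 0.15) and the cystatin Cst7 by 1.43 (SE 0.33), and Serpinb9 was the seventh. Cst7 lost its call with limma-voom, library size alone and libraries thinned to equal depth, and Cd40 with library size alone. Over the 6 fits that left out 1 library, Pdcd1lg2 was called in 3, Cd274 and Cd200 in 2, Fas, Cd40 and Cst7 in 1 and Serpinb9 in 0. The 27 that did not pass ranged widely. Ccl5, a chemokine for T cells, was higher in every knockout library (1.34, SE 0.37, edgeR adjusted p = 0.0962) and passed with limma-voom (adjusted p = 0.0480), without the filter and without wild-type replicate 3 (edgeR adjusted p = 0.00847). Il15ra, which presents interleukin-15 to T cells, was also higher in every knockout library (0.70, SE 0.19, edgeR adjusted p = 0.0918) and passed with DESeq2's Wald test and without the filter. Apol7c (1.66, SE 0.72) and Aldh1a2, a retinoic acid enzyme (-1.22, SE 0.55), overlapped between the groups and passed only without the filter. Cd83, a surface glycoprotein of mature dendritic cells, stood at 521, 521 and 630 against 557, 464 and 556 CPM (log2 fold change -0.08, SE 0.12). The costimulatory ligands Cd80 (0.05, SE 0.15) and Cd86 (0.42, SE 0.12, edgeR adjusted p = 0.105, higher in every knockout library) and the NF-kB subunits Relb (0.14, SE 0.18) and Nfkb2 (-0.0029, SE 0.14), which drive the mature program, did not pass. Cd86 passed with DESeq2's Wald test (adjusted p = 0.0310) and without the filter. Of 4 tested genes of interleukin-4 signalling, a pathway that induces Ccl17 and Ccl22, none passed: Il4ra was at 0.07 (SE 0.17), Stat6 at 0.0070 (SE 0.12), Il13ra1 at 0.49 (SE 0.13, edgeR adjusted p = 0.0771) and Irf4 at -0.70 (SE 0.27, edgeR adjusted p = 0.236). Il13ra1 passed with DESeq2's Wald test (adjusted p = 0.0126) and without the filter.

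Genes that mark dendritic cells in general had 5 positive and 5 negative estimates. Of these 10 genes none rose and 3 fell, against 1.76% and 1.05% of all tested genes. Flt3, the growth factor receptor of the lineage, fell by 2.01 on the log2 scale (SE 0.28). Bcl11a fell by 1.99 (SE 0.40) and the transcription factor Zbtb46 by 1.20 (SE 0.26). Bcl11a and Zbtb46 lost their call with limma-voom. Without 1 library Flt3 was called in 5 of 6 fits, Zbtb46 in 1 and Bcl11a in 0. Itgax (0.25, SE 0.12) and the class II gene H2-Eb1 (0.25, SE 0.09) were higher in every knockout library and did not pass, nor did the class II gene H2-Ab1 (0.03, SE 0.09), and the 10 together summed to 39237 to 47007 CPM in the wild-type group and 43542 to 54586 CPM in the knockout group. Of 8 cDC1 markers 3 fell (against 1.05% of all tested genes), led by the chemokine receptor Xcr1 (-2.18, SE 0.29), and 5 did not pass. Among those 5, Clec9a was at -0.07 (SE 0.28) and Irf8 at 0.21 (SE 0.20), the only positive estimate of the list. Of 8 cDC2 markers the lectin Cd209a fell (-1.86, SE 0.24) and Sirpa rose (0.56, SE 0.10), the last not with library size alone. Xcr1 and Cd209a were called in all 6 fits without 1 library, and Sirpa in 2.

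**Figure D4:**
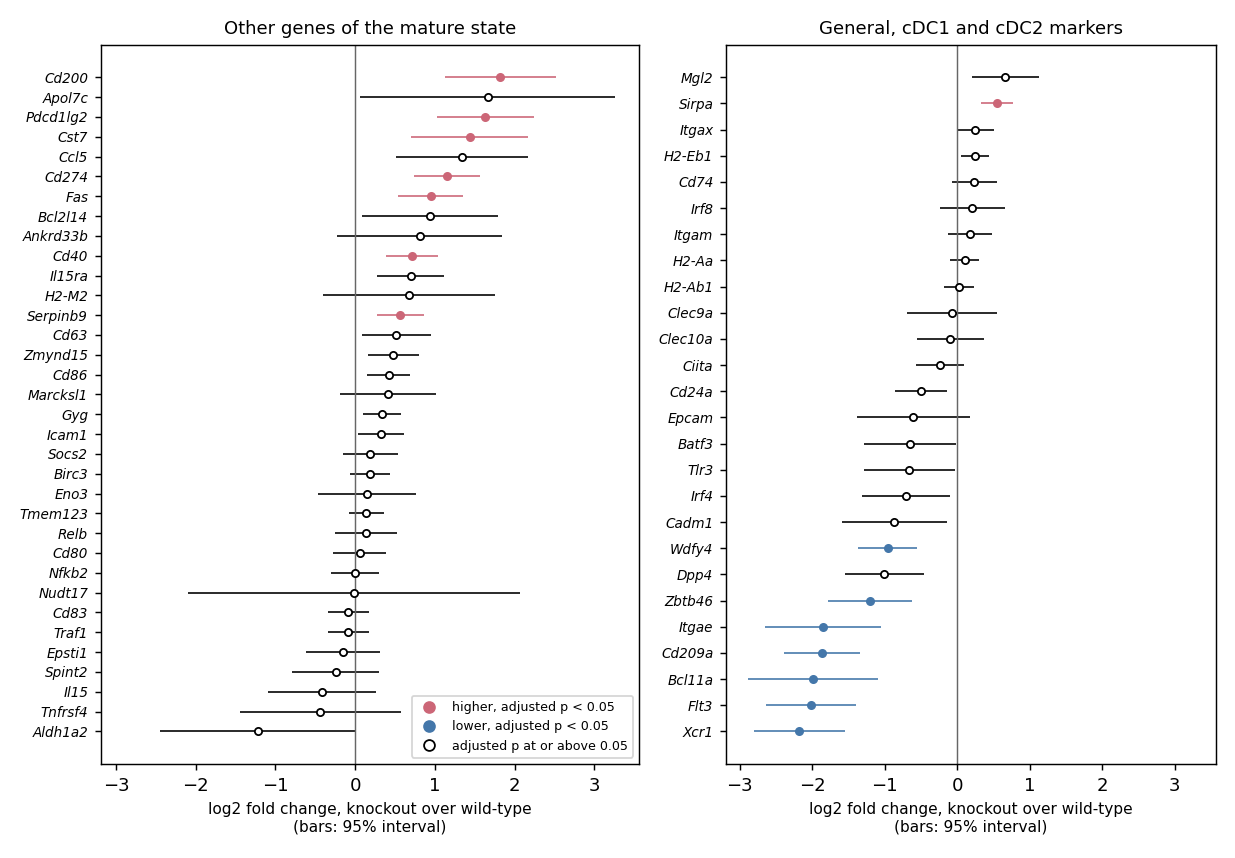
Log2 fold change of knockout over wild-type with 95% intervals, left for the 34 other genes of the mature state and right for the general dendritic cell, cDC1 and cDC2 markers, with filled red for higher and filled blue for lower at adjusted p below 0.05. On the left 7 genes are red and none is blue, from Serpinb9 at 0.57 to Cd200 at 1.82, and on the right Flt3, Bcl11a, Zbtb46 and Xcr1 are among the blue.

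The libraries also held transcripts of other cells, and their part in the changes of Ccr7 and Ccl22 was not tested. Macrophage genes were abundant in both groups. The lysozyme gene Lyz2 ranged over 19007 to 23584 CPM in the wild-type group and 19241 to 27284 CPM in the knockout group. Of 12 such markers 0 passed, and their sum was 26610 to 31868 against 28331 to 35876 CPM. In every knockout library 7 were higher and 1 was lower, against 11.2% and 10.6% of all tested genes. The lower one was Apoe (-0.84, SE 0.21, edgeR adjusted p = 0.0646). C1qa, which encodes a chain of complement C1q, was at 0.39 (SE 0.10) and did not pass (edgeR adjusted p = 0.0634), but did with DESeq2's Wald test and without the filter. Of 6 monocyte markers Chil3 rose (2.46, SE 0.51), a call lost with robust dispersion and held in 1 of 6 fits without 1 library, and their sum was 5590 to 6363 against 8493 to 17042 CPM. Chil3 made that difference: the other 5 summed to 3920 to 5768 against 4558 to 5256 CPM, and Ccr2, the receptor that brings monocytes into tissue, was lower in every knockout library without passing (-0.17, SE 0.09). Of 4 tested endothelial markers Flt1 rose (1.89, SE 0.35; called in 2 of 6 fits without 1 library), with sums of 49.6 to 97.8 against 118 to 223 CPM over 6 genes. Without Flt1 the sums were 32.6 to 54.3 against 50.6 to 85.1 CPM. Pecam1 (0.73, SE 0.26) and Vwf (0.34, SE 0.23) had positive estimates, overlapped between the groups and did not pass. The receptor gene Kdr was lower in every knockout library without passing (-0.77, SE 0.42). Cdh5 had 5, 0 and 1 counts in wild-type and 0 in all knockout libraries, too few to compare. Ighm fell (-1.93, SE 0.24) among 2 tested B cell markers and was called in all 6 fits without 1 library. The other, Cd79b, was lower in every knockout library without passing (-1.73, SE 0.45, edgeR adjusted p = 0.0727). The B cell list summed to 31.4 to 52.2 against 10.2 to 12.0 CPM. None of 9 T cell, 5 natural killer, 4 neutrophil, 4 plasmacytoid, 3 epithelial or 5 fibroblast markers tested passed. Several of their defining genes were scarce, with Cd3e at 0.148 to 1.54 and Siglech at 0.148 to 2.05 CPM across the 6 libraries. S100a8 stood at 4.32 to 9.79 and Epcam at 5.17 to 16.2 CPM, and Krt8 had 1 count in all. Other markers of these lists were not scarce: the epithelial Cdh1 stood at 353 to 671 CPM and the plasmacytoid Bst2 at 50.6 to 93.5 CPM. The neutrophil marker Mmp9 ranged from 0.899 to 48.6 CPM.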

How the data were processed

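Per the labels' protocols, RNA was isolated with Trizol and made into Illumina libraries. The deposited table holds unnormalized read counts for each Ensembl gene, 1 column per sample. According to the submitters' processing notes the build was mm10, and HISAT2, HISAT, HTSeq and DESeq2 were used, without versions or roles. The sources used here do not give the annotation release, the strand setting or how the cells were sorted.

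GENCODE M21 (GRCm38, the mm10 build) gave symbols, positions and exon lengths for 26356 of 26519 identifiers, and RefSeq (GRCm38.p6) gave promoter windows. The test was the quasi-likelihood F test of edgeR 4.0.16 (R 4.3.3) for knockout against wild-type, without covariates. It followed filterByExpr and TMM scaling, and p-values were adjusted by Benjamini-Hochberg over the 12580 genes left. The filter asked for a CPM equal to 10 counts at the median library size in at least 3 libraries, and 15 counts in total. The procedure was tested on simulated data. Floors for low counts cover counting error only.

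The 10 genes and all other lists and motifs were chosen with earlier results of these data known. The rule for naming took the 10, up to 5 called genes of each other list by smallest p (the 2 with the smallest p where none was called), genes of partner lists, Mavs and defining markers, and the text gives those on which a result turns. Outside it, Cd83, Cd80, Cd86, Relb, Nfkb2, Cst7, Tbc1d17, Itgax, H2-Ab1, H2-Eb1, Ccl5, Il15ra, Apol7c, Aldh1a2, Clec9a, Irf8, Ccr2, Pecam1, Vwf, Kdr, Cdh5 and Cd79b were picked with their values in view. Besides leaving out each library, the counts were refitted with other size factors (DESeq2 1.42.0) or library size only, other filters, robust dispersion, a replicate block, the DESeq2 Wald test and limma-voom (limma 3.58.1). Thinning to 14466640 counts per library was added after seeing the data. Within each group, no pair of libraries agreed within sampling noise.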

Additional observations from a re-analysis of the deposited data

How the results depend on the processing

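Ccr7 passed in each of the 9 other fits on all 6 libraries and Ccl22 in 8 of 9. With library size alone 1 gene of the list was called, Ccr7, and the median over every tested gene moved to -0.17 from -0.0022 (log2). Leaving out 1 library gave 0 to 1 called genes of the list, a median of 0.50 to 0.98 and 36 to 277 called genes in all. That count fell to 39, 64 and 36 without knockout replicate 1, 2 or 3, and to 193 and 151 without wild-type replicate 1 or 2. In all, 778 genes were called with DESeq2's Wald test (437 higher, 341 lower) and 924 without the filter on low counts (531 higher, 393 lower), against 354 (222 higher, 132 lower). With library size alone the split was 102 higher and 341 lower. With a mean of at least 5 CPM the median of the list was 0.51, over the 6 genes left. No gene of the list was called lower in any fit, and 0 had been in the reported one, where 1 had a negative estimate (Tbc1d4) with an unadjusted p of 0.0465. No tested gene of the list changed direction in any fit.

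Genes that did not pass and turned direction were all near 0, and the cause was not tested. With library size alone these were Cd80 (-0.12), H2-Ab1 (-0.14), Il4ra (-0.10), Lyz2 (-0.14), Relb (-0.033), Stat6 (-0.16) and Tbc1d17 (-0.055). Stat6 was at -0.011 under the filter of 5 CPM, and Nfkb2 at 0.0133 with limma-voom and 0.0128 with the replicate block. Over the fits that left out 1 library the ranges were -0.26 to 0.18 for Ahr, -0.069 to 0.22 for Cd80, -0.14 to 0.014 for Cd83, -0.048 to 0.092 for H2-Ab1, -0.12 to 0.22 for Il4ra, -0.15 to 0.12 for Lyz2, -0.15 to 0.086 for Nfkb2, -0.058 to 0.24 for Relb, -0.12 to 0.10 for Stat6 and -0.10 to 0.25 for Tbc1d17.

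Replicate numbers are shared between the groups, but deviations of same-numbered libraries correlated at 0.04, 0.09 and -0.04 across genes, so the numbers were not taken to pair them. With the replicate block 414 genes were called, Ccr7 and Ccl22 among them (2 of the list higher, 0 lower, median 0.78). Among the other named genes the block gave calls to Dpp4 (adjusted p = 0.0145), Ccl5 (0.0394) and Il13ra1 (0.0497) in edgeR and took that of Serpinb9 (0.0775).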

Other observations

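Among the 34 other genes of the mature state, knockout replicate 1 was the highest knockout library for 18 (52.9%, against 32.7% of all tested genes), and wild-type replicate 2 was the lowest wild-type library for 22 (64.7%, against 33.1%). The genes share libraries, and the pattern was noticed in these data and not tested.

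Relative to Itgax, Ccr7 was 0.181, 0.100 and 0.145 in wild-type and 0.354, 0.219 and 0.192 in knockout libraries, with no overlap. Ccl22 relative to Itgax did overlap, at 0.267, 0.189 and 0.225 against 0.499, 0.377 and 0.230. Relative to H2-Ab1 it did not, at 0.00392, 0.00331 and 0.00333 in wild-type against 0.00979, 0.00659 and 0.00413 in knockout libraries. Neither Ccr7 nor Ccl22 overlapped relative to Zbtb46 or Flt3, which themselves fell. With 3 libraries a group, an exact two-sided permutation test cannot give a p under 0.10.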
